A study of Mus musculus with 13 samples.

Results

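The genes described here encode the transcription factor AP-1 and other immediate early factors, 10 genes of the 45250 in the expression table. They were Fos, Fosb, Fosl1 and Fosl2 (the FOS family), Jun, Junb and Jund (the JUN family), and Atf3, Egr1 and Ier2, found by gene symbol with 1 row for each. RNAseq had been performed on mouse embryonic stem (ES) cells differentiated in culture towards blood. Flk-1+ cells, the haemangioblast stage, were taken from embryoid bodies of WT, Lmo2-/- and Tal1-/- ES cells, with 3 libraries per genotype. Haemogenic endothelium 1 (HE1), sorted as Tie2+ Kit+ CD41- after the Flk-1+ cells had been cultured with VEGF and IL-6, was taken from WT and Lmo2-/- cells, with 2 libraries per genotype. The methods name 1 ES cell line for each genotype, so genotype and line cannot be told apart. Flk-1+ cells were sorted with magnetic beads after trypsin and HE1 by flow cytometry. The HE1 culture also used another medium, with conditioned medium and the growth factors named, on gelatin. Stage, culture conditions and sorting procedure therefore cannot be told apart either.

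AP-1 is a dimer of basic leucine zipper (bZIP) proteins. FOS proteins pair with partners outside their own family, chiefly JUN proteins, whereas JUN proteins also pair among themselves, and ATF3 can pair with JUN. The dimers bind DNA at the TPA response element or at the cyclic AMP response element. Fos, Egr1 and Ier2 are textbook immediate early genes: growth factor signals through the MAP kinases switch them on within minutes, in large part through serum response factor and its ETS partners, without new protein synthesis. Several of these genes are also known to respond to VEGF in endothelial cells and to the handling of cells. LMO2 and TAL1, the factors that the knockouts lack, sit in a common DNA-bound complex that is needed for the formation of blood.

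Expression is given in FPKM, a fragment count divided by transcript length and library size, with 1 value per library. Between 11861 and 15641 genes were above 0 in 12 libraries and 9694 were in Lmo2-/- HE1 replicate 1. By the steps between low values, 1 fragment on a transcript of 2000 bases was worth 0.457 FPKM in that library and between 0.0733 and 0.189 FPKM in the others. Listed zeros among the 4079 genes whose median FPKM exceeded 10 numbered 191 in that library and between 1 and 59 in the others, so a value of 0 is given below only as listed. Depth below means the estimate from these steps, which also carries the scaling of the values. The paper gives a minimum of reads per library, not a count for each. Lmo2 itself lay between 21.6 and 30.8 FPKM in WT Flk-1+ cells and between 2.17 and 6.48 FPKM in Lmo2-/- Flk-1+ cells. In HE1, however, it stood at 4.30 and 20.6 FPKM in the libraries labelled WT and at 6.42 and 0 FPKM in those labelled Lmo2-/-, so the targeted gene did not separate them and every direction between HE1 genotypes rests on the labels. Tal1 lay between 2.74 and 3.41 FPKM in Tal1-/- Flk-1+ cells and between 22.0 and 37.4 FPKM in WT Flk-1+ cells. The 10 endothelial markers summed to between 3.09 and 61.2 FPKM in the 9 Flk-1+ libraries and to between 678 and 936 FPKM in the 4 HE1 libraries. Ptprc, which encodes the pan-leukocyte marker CD45, was listed at 0 in all 13.

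The levels of the 10 genes differed widely. In Flk-1+ cells the highest were Fosl2, Jun and Egr1, whose libraries lay between 1.04 and 13.9 FPKM, whereas Fosb stayed at or below 0.362 FPKM and Fosl1 was listed at 0 in all 9 libraries. Fosl1, a FOS family member that is usually induced late, was above 0 only in WT HE1 replicate 1, at 0.197 FPKM, and was not tested. The other 9 genes had at least 1 FPKM in at least 2 libraries and were tested among 13802 such genes with limma on log2(FPKM + 1), the scale of all fold changes below. A gene was called where its Benjamini-Hochberg adjusted p was below 0.05 and at least 1 of the 2 groups had a mean above 10 FPKM. In the sentences below, the values of Flk-1+ libraries are given for replicates 0, 1 and 2 and those of HE1 for replicates 0 and 1.

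**Figure D1:**
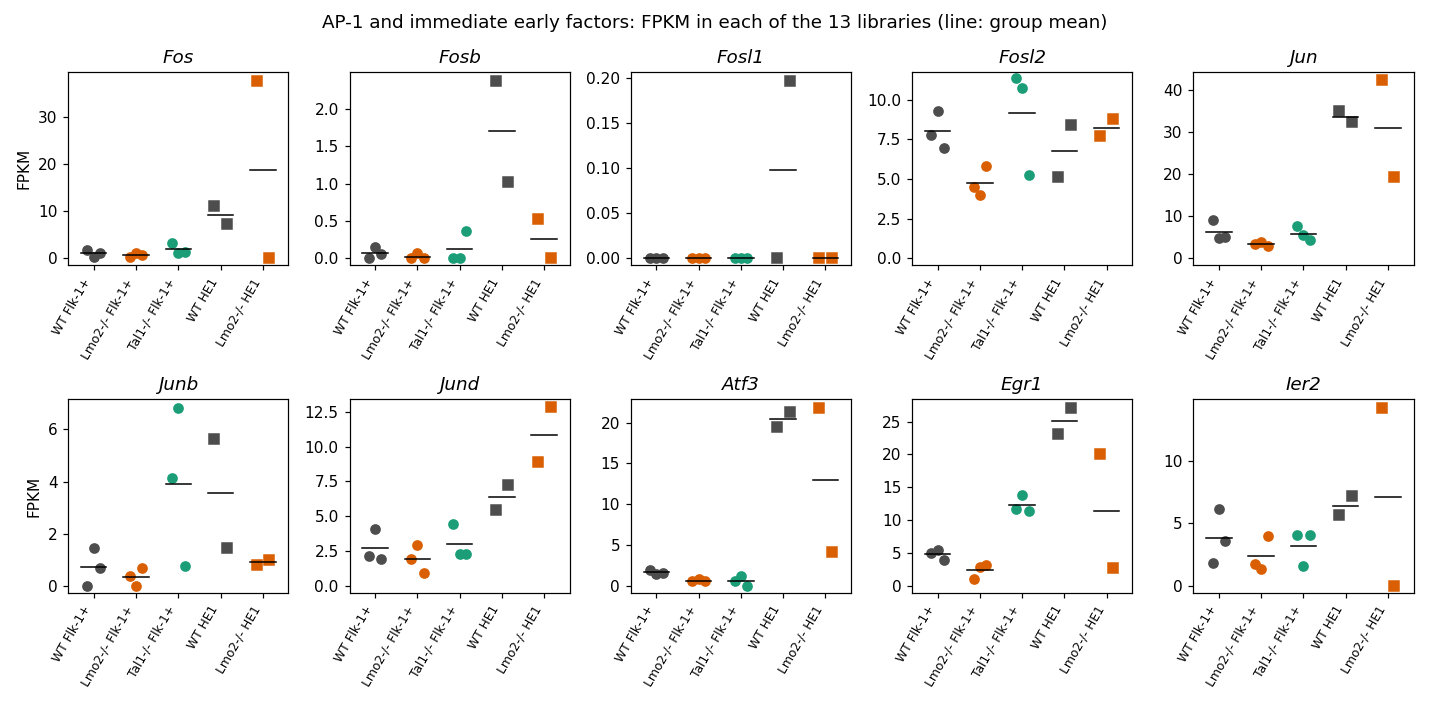
FPKM (vertical axis, linear, a scale for each gene) of the 10 genes in the 13 libraries, by group on the horizontal axis. Points are libraries (circles Flk-1+ cells, squares HE1) and lines are group means. Jun, Atf3 and Egr1 were higher in both WT HE1 libraries than in every Flk-1+ library, and the pair of Lmo2-/- HE1 libraries lay far apart for Fos (37.7 and 0 FPKM), Atf3, Egr1 and Ier2.

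The largest changes were between the stages. Jun, Atf3 and Egr1 rose from the Flk-1+ cells of WT to their HE1, 3 of the 9 genes tested, and 0 fell. Of all genes tested 6.98 percent were called in this comparison, 834 of them higher and 130 lower in HE1. The estimate was above 0 for 8 of the 9 genes, with a median log2 fold change of 1.33 against 0.11 over all genes. For 6 of the 9 both HE1 libraries lay above all 3 Flk-1+ libraries, as they did for 27.6 percent of all genes. Fosb, 1 of the 6, passed the filter only through its WT HE1 values. Without WT HE1 replicate 0 limma called 0 of the 9 genes (323 of all genes), and without WT HE1 replicate 1 it called 1 (408 of all genes). In bulk libraries, fewer cells with a transcript and less of it per cell cannot be told apart. The sum of the endothelial markers was at most 61.2 FPKM in Flk-1+ cells and at least 678 FPKM in HE1, and its part in these values was not tested. Both stage comparisons share their Flk-1+ libraries with the genotype comparisons further down.

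Jun encodes the best known JUN protein, a strong activator. Its row in the expression table covers a longer locus than the gene (coordinates further down). The FPKM of Jun was 9.15, 4.73 and 5.01 in WT Flk-1+ cells and 34.9 and 32.2 in WT HE1. Both HE1 libraries lay well above the Flk-1+ range, and Jun stood at percentiles 88.2 and 88.1 of the tested genes there, against percentiles 52.0 to 66.5 in WT Flk-1+ cells. On the log2 scale Jun was higher by 2.29 (± 0.44 SE, the standard error, adjusted p = 0.00496 by limma), with a ratio of mean FPKM of 5.33. Without WT HE1 replicate 0 it was 2.24, with a limma adjusted p of 0.0677.

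Atf3, a bZIP factor induced by stress signals, had 1.92, 1.42 and 1.53 FPKM in WT Flk-1+ cells and 19.5 and 21.4 FPKM in WT HE1. This was the largest log2 fold change of the 9 genes in WT, and the stages did not overlap. It was 3.03 (± 0.59 SE, adjusted p = 0.00557 by limma), a ratio of mean FPKM of 12.6. The call was lost without WT HE1 replicate 0 or without replicate 1, where limma gave adjusted p-values of 0.0535 and 0.0532.

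Egr1, a zinc finger factor downstream of the MAP kinases, had 5.01, 5.45 and 3.92 FPKM in WT Flk-1+ cells and 23.0 and 27.1 FPKM in WT HE1. The stages did not overlap, and the log2 fold change was 2.18 (± 0.61 SE, adjusted p = 0.0381 by limma), a ratio of mean FPKM of 5.23. This call was the least secure of the 3: it was lost with any of the 5 libraries of the comparison left out (limma adjusted p between 0.0652 and 0.181) and under 5 other settings. Over all alternatives, those that kept the call included, the estimate lay between 1.62 and 2.37.

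Fos and Fosb, inducible members of the FOS family, did not pass. Fos had 1.78, 0.211 and 1.12 FPKM in WT Flk-1+ cells and 11.1 and 7.20 FPKM in WT HE1. Both HE1 libraries were higher, but with a standard error of 1.06 the log2 fold change of 2.37 had a limma adjusted p of 0.192. Fosb had 0, 0.154 and 0.0543 FPKM in WT Flk-1+ cells and 2.38 and 1.02 FPKM in WT HE1. Its log2 fold change of 1.29 (standard error 0.35) had a limma adjusted p of 0.0344, and it was not called because its mean FPKM was under 10. Only the WT HE1 libraries had at least 1 FPKM of Fosb, so it entered the test through the group where it was high. Its p-values and its places in counts that involve WT HE1, here and below, rest on that selection and are description only. Fosl2, of the same family, did not share this difference, with 7.77, 9.25 and 6.98 FPKM in WT Flk-1+ cells and 5.13 and 8.38 FPKM in WT HE1 (log2 fold change -0.24 ± 0.43 SE, adjusted p = 0.781 by limma).

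Jund and Junb, JUN proteins that often restrain the activity of JUN, and Ier2, a nuclear protein of the early response, did not pass either. Jund had 2.15, 4.05 and 1.93 FPKM in WT Flk-1+ cells and 5.47 and 7.20 FPKM in WT HE1, without overlap (log2 fold change 1.02 ± 0.49 SE, adjusted p = 0.228 by limma). Junb had 0, 1.46 and 0.691 FPKM against 5.64 and 1.45 FPKM, and its stages overlapped. Ier2 overlapped as well, with 1.80, 6.09 and 3.54 FPKM against 5.64 and 7.14 FPKM. Exact permutation tests (two-sided) of these single genes gave p = 0.10 for Jun, Atf3, Egr1, Fos and Fosb, which is the smallest that 3 against 2 libraries allow, p = 0.20 for Jund and p = 0.30 for Junb and Ier2.

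In Lmo2-/- cells Jun, Atf3 and Jund rose from Flk-1+ cells to HE1, again 3 of 9 with 0 fallen, where 19.6 percent of all genes were called. All 9 estimates were above 0, although those of Fosl2 and Ier2 turned to -0.17 and -0.03 when libraries were rescaled to a common median and that of Ier2 to -0.88 with a pseudocount of 0.1, with a median of 1.47 against 0.30 over all genes, and 5 of the 9 did not overlap and were higher in HE1, as were 31.9 percent of all genes. Jun had 3.40, 3.87 and 2.90 FPKM in Lmo2-/- Flk-1+ cells and 42.2 and 19.4 FPKM in Lmo2-/- HE1. Both HE1 libraries stood far above the Flk-1+ range although they differed from each other. The log2 fold change of Jun was 2.76 (± 0.44 SE, adjusted p = 0.000891 by limma), and it stayed called under all 16 alternatives, with estimates between 1.82 and 3.31.

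Atf3 had 0.520, 0.804 and 0.547 FPKM in Lmo2-/- Flk-1+ cells and 21.8 and 4.10 FPKM in Lmo2-/- HE1. The stages did not overlap, but the HE1 libraries were far apart, and the log2 fold change of 2.74 (± 0.59 SE, adjusted p = 0.00496 by limma) was 1.66 without Lmo2-/- HE1 replicate 0 and 3.82 without replicate 1. Without replicate 0 the mean FPKM of Atf3 fell under 10 and the call was lost. Jund had 1.89, 2.94 and 0.912 FPKM in Lmo2-/- Flk-1+ cells and 8.91 and 12.8 FPKM in Lmo2-/- HE1, without overlap. With Fosl2 and Junb it was 1 of only 3 among the 9 genes with a higher value in Lmo2-/- HE1 replicate 1 than in replicate 0. Its log2 fold change was 2.07 (± 0.49 SE, adjusted p = 0.00872 by limma) and 1.83 with an adjusted p of 0.0536 without Lmo2-/- HE1 replicate 1.

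Fos, Egr1 and Ier2 were divided between the Lmo2-/- HE1 libraries. Fos had 0.363, 1.06 and 0.654 FPKM in Lmo2-/- Flk-1+ cells, then 37.7 FPKM in HE1 replicate 0, its highest value among the 13 libraries, and was listed at 0 in replicate 1. Egr1 had 1.04, 2.78 and 3.13 FPKM against 20.03 and 2.66 FPKM, and Ier2 had 1.72, 1.35 and 3.94 FPKM against 14.2 FPKM and a listed 0. None of the 3 passed (limma adjusted p = 0.204, 0.0920 and 0.823). Without replicate 1, the library of lowest depth, Fos (log2 fold change 4.53, limma adjusted p = 0.00116), Egr1 (2.73, adjusted p = 0.00419) and Ier2 (2.27, adjusted p = 0.0366) were called, 5 of the 9 genes with Jun and Atf3, against 12.0 percent of all genes. Without replicate 0 the estimates of Fos, Egr1 and Ier2 were -0.74, 0.21 and -1.66. The part that depth plays in this division was not tested.

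**Figure D2:**
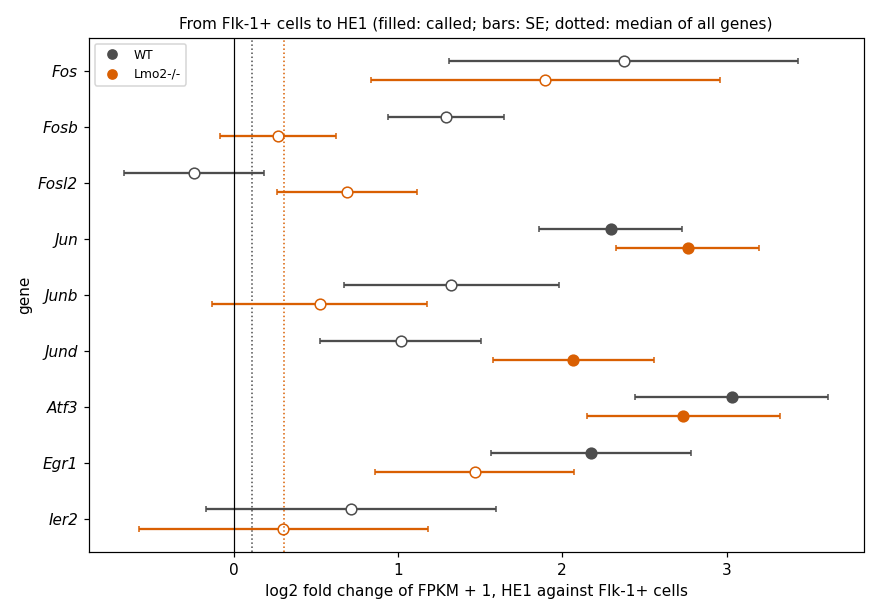
Log2 fold change of FPKM + 1 from Flk-1+ cells to HE1 (horizontal axis) for the 9 genes tested (vertical axis), in WT (grey) and Lmo2-/- cells (orange); bars are standard errors, filled points are called genes and dotted lines the medians of all genes, 0.11 and 0.30. Jun and Atf3 were called in both genotypes, Egr1 in WT and Jund in Lmo2-/- cells.

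Whether the step to HE1 differed between the genotypes was tested with the interaction of genotype and stage. Of the 9 genes, 0 were called by limma and 0 had an unadjusted p below 0.05, whereas 0.348 percent of all genes were called and 1672 had such a p. The smallest adjusted p was that of Fosb, 0.428, at an interaction of -1.02 (standard error 0.50), a gene tested only through its WT HE1 values. For Egr1, called in WT alone, the interaction was -0.71 (standard error 0.86, adjusted p = 0.769), and for Jund, called in Lmo2-/- cells alone, 1.05 (standard error 0.69, adjusted p = 0.553), so neither step was shown to differ between the genotypes.

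Sequence upstream of the RefSeq start was searched for 7 of these genes, without Fosl1, Egr1 and Ier2. The 150 bases before the start are shown for Jun and Atf3, which rose in both genotypes, and for Fos, the founding immediate early gene, to let the motifs be compared with the expression values. Coordinates are on GRCm38.p6, sequences run 5′ to 3′ on the strand of the gene, and capitals mark TGACG, TGACATCA and TATAAA, the motifs found out of those searched. The stretches lie at chr12:85473740-85473889 (plus strand, Fos), chr4:95052223-95052372 (minus strand, Jun) and chr1:191183334-191183483 (minus strand, Atf3). The start of Atf3 used in this RefSeq table is not the outermost one: the GENCODE gene extends further upstream, to base 191218039, so the stretch lies within the annotated gene.
Fos: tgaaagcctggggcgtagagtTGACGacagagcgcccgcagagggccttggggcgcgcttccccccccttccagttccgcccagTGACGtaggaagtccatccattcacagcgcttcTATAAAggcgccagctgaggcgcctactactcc
Jun: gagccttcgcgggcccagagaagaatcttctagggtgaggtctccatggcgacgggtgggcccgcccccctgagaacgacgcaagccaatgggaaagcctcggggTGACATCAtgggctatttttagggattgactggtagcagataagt
Atf3: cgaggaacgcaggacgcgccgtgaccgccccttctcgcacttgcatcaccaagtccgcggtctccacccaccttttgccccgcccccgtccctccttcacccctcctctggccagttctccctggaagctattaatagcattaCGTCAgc

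Among the 250 bases before the start, Jun held TGACATCA, an AP-1 type element, 45 bases before the start, a word held by 2.93 percent of 32851 such windows. The shorter cyclic AMP response word TGACG stood in Fos at 129 and 66 bases before the start, in Fosb at 60, in Junb at 106 and, on the reverse strand, in Atf3 at 7, that is in 4 of the 7 windows against 17.8 percent of all. The EGR words GCGTGGGCG or GCGGGGGCG stood in Fosb and Fosl2, against 3.06 percent of all windows, and TATAAA, searched on the strand of the gene, stood in Fos, against 7.59 percent. The canonical TPA response element TGANTCA, the full element TGACGTCA, which contains TGACG, and the CArG box of serum response factor stood in 0 of the 7 windows, against 6.75, 1.55 and 1.47 percent of all. Egr1 and Ier2 were not among the 7 genes, and sequence more than 250 bases before the start was not searched. The 0 therefore does not show that the early genes lack these elements. The words were searched on both strands except for TATAAA. A match is a description of these letters only, and the genes with and without TGACG included risers and others alike.

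In Flk-1+ cells the question was whether the same factors differed in the Lmo2-/- and in the Tal1-/- line. Lmo2 had 0, 7.58 and 1.29 FPKM in Tal1-/- Flk-1+ cells, and Tal1 had 6.51, 29.0 and 6.64 FPKM in Lmo2-/- Flk-1+ cells. The paper reports no detectable LMO2 protein in Tal1-/- and less TAL1 protein in Lmo2-/- Flk-1+ cells. The knockouts are therefore not separate losses of LMO2 and of TAL1. The comparisons with WT share the WT libraries, so their values are given side by side. Between Lmo2-/- and WT 0 of the 9 genes were called by limma, as were 0 percent of all genes, with an unadjusted p below 0.05 for 0 of the 9 and for 307 of all genes. All 9 estimates were below 0 (median -0.51 against -0.01 over all genes), although that of Fosb was 0.05 after quantile normalization. The estimates of Fos and Junb were 0.06 without WT replicate 0 and 0.02 without WT replicate 1. Fosl2, Jun, Atf3 and Egr1 lay lower in every Lmo2-/- library than in every WT library, 4 of 9 against 4.22 percent of all genes. For each of these 4 an exact two-sided permutation test gave p = 0.10, the smallest that 3 against 3 libraries allow, and a limma adjusted p of 1.0.

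Between Tal1-/- and WT 0 of the 9 genes were called by limma either, as were 0 percent of all genes, with an unadjusted p below 0.05 for 2 of the 9 (Egr1 and Junb) and for 843 of all genes. Estimates lay on both sides of 0, 6 above and 3 below (median 0.10 against -0.01 over all genes). Egr1 was higher in every Tal1-/- library, 1 of 9 against 5.25 percent of all genes, and Atf3 lower in every library, 1 of 9 against 7.4 percent of all genes.

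Egr1 was the only one of the 9 genes whose 3 genotypes were fully separated in Flk-1+ cells. It had 1.04, 2.78 and 3.13 FPKM in Lmo2-/- cells, 5.01, 5.45 and 3.92 FPKM in WT and 11.6, 13.9 and 11.3 FPKM in Tal1-/- cells. No library of 1 genotype overlapped another, in the order Lmo2-/-, WT, Tal1-/- that 13 of the 13802 genes had, and 82 genes (0.594 percent) were separated in any order. The mean FPKM was 0.483 times that of WT in Lmo2-/- and 2.56 times that of WT in Tal1-/-, and neither difference passed (log2 fold change -0.86 ± 0.54 SE, adjusted p = 1.0 for Lmo2-/- against WT, and 1.20 ± 0.54 SE, adjusted p = 0.804 for Tal1-/- against WT, both limma).

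Between Tal1-/- and Lmo2-/- Flk-1+ cells, whose libraries are those of the comparisons with WT, 0 of the 9 genes were called by limma, against 0.0145 percent (2) of all genes. Here 2 of the 9 and 822 of all genes had an unadjusted p below 0.05. Estimates were above 0 for 8 of the 9 (median 0.62 against -0.004 over all genes), with Atf3 the exception at -0.13 and at 0.11 after quantile normalization. Fos, Jun, Junb and Egr1 were higher in every Tal1-/- library, 4 of 9 against 6.59 percent of all genes. For Fos the margin was narrow, 1.21 FPKM in Tal1-/- replicate 1 against 1.06 FPKM in Lmo2-/- replicate 1. In these libraries 1 fragment on 2000 bases was worth 0.127 and 0.142 FPKM. Egr1 differed most, by a log2 fold change of 2.06 (± 0.54 SE, unadjusted p = 0.00212, adjusted p = 0.488 by limma) and a ratio of mean FPKM of 5.30. Junb had 4.15, 6.82 and 0.766 FPKM in Tal1-/- cells and 0.381, 0 and 0.667 FPKM in Lmo2-/- cells (log2 fold change 1.65 ± 0.58 SE, adjusted p = 0.717 by limma), and Tal1-/- replicate 2 was close to the Lmo2-/- range.

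Jun had 7.60, 5.62 and 4.35 FPKM in Tal1-/- Flk-1+ cells, within reach of WT, and Fos had 3.24, 1.21 and 1.36 FPKM. Fosl2 had 11.4, 10.8 and 5.25 FPKM in Tal1-/- cells against 4.46, 4.01 and 5.80 FPKM in Lmo2-/- cells, so that Tal1-/- replicate 2 lay inside the Lmo2-/- range. Atf3 had 0.515, 1.14 and 0 FPKM in Tal1-/- cells and was the one of the 9 with both knockouts below every WT library. Mesoderm markers, 8 genes, summed to between 332 and 696 FPKM in WT Flk-1+ cells, to between 242 and 342 FPKM in Lmo2-/- and to between 260 and 353 FPKM in Tal1-/- cells, and 10 haematopoietic markers to between 17.1 and 24.4, 6.08 and 8.92, and 4.17 and 10.6 FPKM. The mesoderm sums overlapped between the genotypes, and the haematopoietic sums of both knockouts lay below those of WT. By limma 0 markers of either list were called in the Flk-1+ comparisons. Of the 8 mesoderm markers, 1 estimate was above 0 in Lmo2-/- and 2 in Tal1-/- against WT (medians -0.735 and -0.567). Eomes lay between 98.3 and 122 FPKM in WT, 44.2 and 63.4 in Lmo2-/- and 40.1 and 63.6 in Tal1-/- cells. The paper reports lower T and Eomes in Lmo2-/- Flk-1+ cells. The part of these markers in the values of Egr1, Jun, Atf3 and Fosl2 was not tested.

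**Figure D3:**
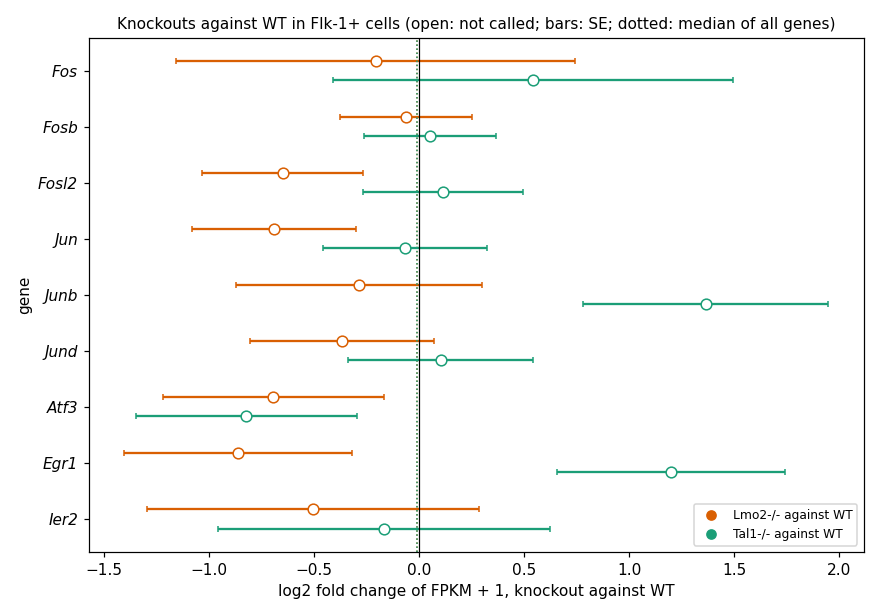
Log2 fold change of FPKM + 1 (horizontal axis) of the 9 genes tested (vertical axis) in Lmo2-/- (orange) and Tal1-/- (green) against the same 3 WT libraries of Flk-1+ cells; bars are standard errors and open points mark genes that were not called, as was the case for all 9. Egr1 stood at -0.86 in Lmo2-/- and 1.20 in Tal1-/-, the widest divide among the 9 genes.

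Between the HE1 libraries labelled Lmo2-/- and WT 0 of the 9 genes were called by limma, against 3.01 percent of all genes, and 2 of the 9 (Egr1 and Fosb) had an unadjusted p below 0.05, as did 2851 of all genes. Jund was higher in both Lmo2-/- libraries, 1 of 9 against 25.9 percent of all genes. Junb, Egr1 and Fosb (tested only through its WT HE1 values) were lower in both, 3 of 9 against 13.8 percent of all genes. For each of these 4 an exact two-sided permutation test gave p = 0.33, the smallest that 2 against 2 libraries allow. Egr1 had a log2 fold change of -1.57 (± 0.66 SE, adjusted p = 0.202 by limma). Without Lmo2-/- HE1 replicate 0, which leaves the shallow library alone in its group and assumes that it varies like the others, Egr1 (-2.83, limma adjusted p = 0.00350) and Atf3 (-2.07, adjusted p = 0.0197) were called, along with 2177 genes in all. Without Lmo2-/- HE1 replicate 1 the estimates of Egr1, Atf3 and Fos were -0.31, 0.09 and 1.96, 0 of the 9 genes were called, against 115 of all genes, and the median of the 9 turned from -0.91 to 0.20.

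Sums of the markers of other cells differed between the HE1 libraries as well. The 8 fibroblast markers summed to between 31.1 and 44.3 FPKM in WT HE1, with Dcn, Thy1 and Lum listed at 0, and to between 209 and 791 FPKM in Lmo2-/- HE1, with only Thy1 listed at 0. Of the 7 tested, 4 were called higher in Lmo2-/- HE1, and 0 without Lmo2-/- HE1 replicate 1. The 8 smooth muscle markers summed to between 192 and 246 FPKM in WT HE1 and to between 348 and 875 FPKM in Lmo2-/- HE1, most of it Acta2, and 0 of the 5 tested were called. Their part in the values of the AP-1 genes was not tested.

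The make-up of the families is given as a description. In the 9 Flk-1+ libraries Fosl2 held between 75.3 and 96.2 percent of the summed FPKM of the FOS family. In WT HE1 it held 27.5 and 49.9 percent and Fos 59.8 and 42.9 percent, in Lmo2-/- HE1 replicate 0 Fos held 82.1 percent, and in Lmo2-/- HE1 replicate 1 Fosl2 was the only member above 0. The summed FPKM of the FOS family was 9.11 ± 0.83 (SD, n = 3) in WT, 5.48 ± 0.86 (SD, n = 3) in Lmo2-/- and 11.2 ± 3.9 (SD, n = 3) in Tal1-/- Flk-1+ cells and, for replicates 0 and 1, 18.6 and 16.8 in WT HE1 and 45.9 and 8.75 in Lmo2-/- HE1, the last inside the Flk-1+ range. The JUN family summed to 9.72 ± 1.89 (SD, n = 3), 5.65 ± 1.16 (SD, n = 3) and 12.8 ± 4.7 (SD, n = 3) FPKM in the same Flk-1+ groups, to 46.0 and 40.9 FPKM in WT HE1 and to 51.9 and 33.2 FPKM in Lmo2-/- HE1. Jun led the JUN family in 12 of the 13 libraries, with Junb ahead in Tal1-/- Flk-1+ replicate 1 at 46.4 percent. The JUN family exceeded the FOS family 2.47- and 2.43-fold in WT HE1, against between 0.695- and 1.32-fold in the Flk-1+ libraries. In Lmo2-/- HE1 the ratio was 1.13, inside the Flk-1+ range, in replicate 0 and 3.80 in replicate 1.

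**Figure D4:**
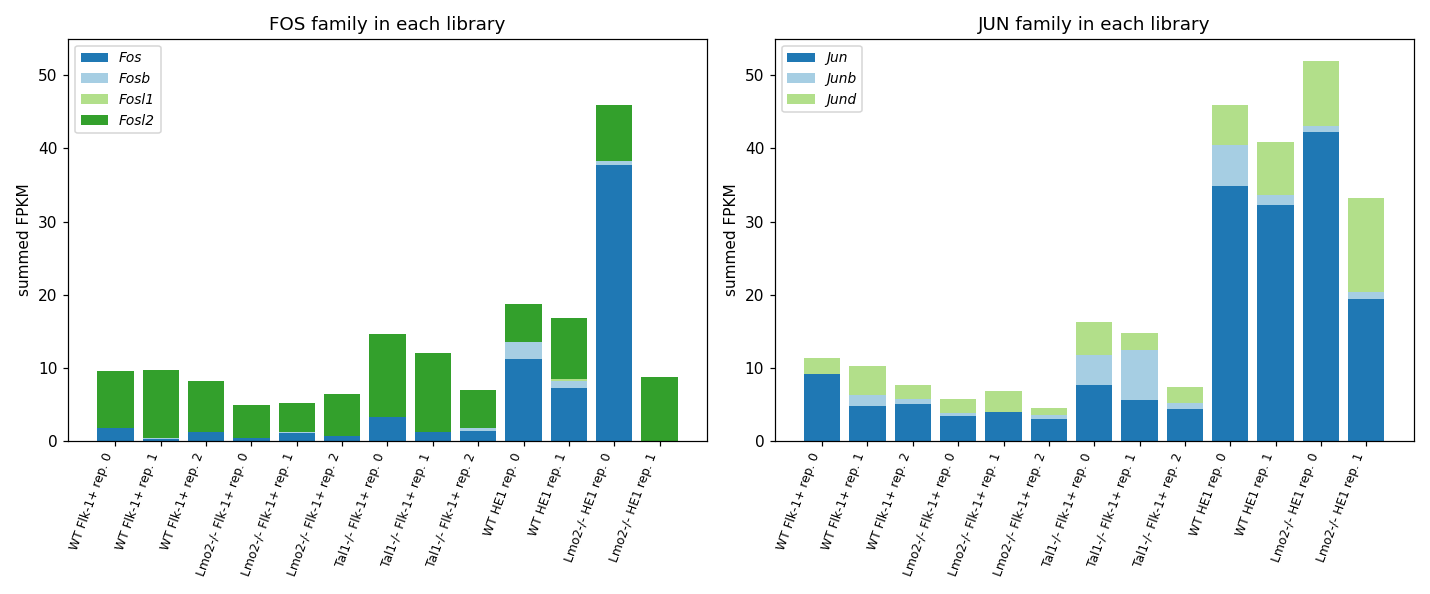
Summed FPKM (vertical axis, linear from 0) of the FOS family (left) and the JUN family (right) in each of the 13 libraries (horizontal axis), divided by member. Fosl2 made up most of the FOS family in every Flk-1+ library and Fos in Lmo2-/- HE1 replicate 0, while Jun made up most of the JUN family in all 4 HE1 libraries, from 58.4 to 81.3 percent.

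Lists of related genes were set beside the AP-1 genes. Of 42 tested genes of a list of other immediate early genes, 7 were called higher and 0 lower from Flk-1+ cells to HE1 in WT (median log2 fold change 0.53 against 0.11 over all genes), and 13 higher and 1 lower in Lmo2-/- cells (0.94 against 0.30). Without Lmo2-/- HE1 replicate 1 the latter were 13 higher and 0 lower. Of all genes 6.98 percent were called in WT and 19.6 percent in Lmo2-/- cells (12.0 percent without that library), and each list below is to be read against these shares and medians. The largest rise in both was that of Plk2, a stress-induced kinase (3.96 in WT and 4.44 in Lmo2-/-). In WT it was followed by Klf2, a flow-responsive endothelial factor (3.55), and Rhob, a small GTPase (2.92). In Lmo2-/- cells it was followed by Socs3, a brake on cytokine signalling (3.61), and Klf2 (3.55), and Rhob rose by 2.41. Id3, an inhibitor of basic helix-loop-helix factors, was the 1 that fell, by 2.31 on the log2 scale. Egr2 and Egr3, close relatives of Egr1, did not share its values in HE1, where they were at or below 0.752 and 1.45 FPKM. Errfi1, a feedback inhibitor of the EGF receptor, was the only gene of this list called between the HE1 genotypes, with 1.73 and 3.30 FPKM in WT HE1 and 15.1 and 10.6 FPKM in Lmo2-/- HE1 (limma adjusted p = 0.0480), and it was not called without Lmo2-/- HE1 replicate 1.

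On the path to the early genes, 26 listed and tested genes of the serum response factor and MAP kinase route included 5 called higher and 1 lower in WT (median 0.52) and 10 higher and 0 lower in Lmo2-/- cells (median 1.08), against 6.98 and 19.6 percent of all genes and medians of 0.11 and 0.30, the latter 5 higher and 1 lower without Lmo2-/- HE1 replicate 1. The ETS factors Elk3 (3.60 in WT and 3.73 in Lmo2-/-) and Ets1 (3.35 and 3.48) led in both, and Ets2 rose by 3.33 in WT and 1.49 in Lmo2-/- cells. Elk3 partners serum response factor, and Mkl2, a coactivator of that factor, rose by 2.22 in WT and 2.30 in Lmo2-/- cells. Braf, the kinase above the MAP kinases, fell by 1.71 on the log2 scale in WT and was higher by 1.68 in Lmo2-/- than in WT HE1, where it was not called without Lmo2-/- HE1 replicate 1. Srf, which encodes the factor itself, lay between 3.86 and 9.24 FPKM in 12 libraries and at 17.6 FPKM in Lmo2-/- HE1 replicate 1.

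Among 24 tested partners of the bZIP class, 3 were called higher and 0 lower in WT and 7 higher and 0 lower in Lmo2-/- cells (4 and 0 without Lmo2-/- HE1 replicate 1), with medians of 0.41 and 0.86, against 6.98 and 19.6 percent of all genes (12.0 without that library) and medians of 0.11 and 0.30. The largest rise was that of Creb3l2, a membrane-bound factor of the secretory pathway, by 4.16 in WT and 4.51 in Lmo2-/-, from between 2.58 and 6.07 FPKM in the 9 Flk-1+ libraries to between 80.6 and 114 FPKM in the 4 HE1 libraries. Atf6, a factor of the unfolded protein response, rose by 2.58 and 2.41, and Bach1, a repressor of haem-responsive genes, by 1.38 and 2.29 in the same order. Atf1 rose by 2.43 in Lmo2-/- cells.

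Of 22 tested genes commonly described as AP-1 targets, 8 were called higher and 0 lower in WT (median 0.87) and 7 higher and 1 lower in Lmo2-/- cells (median 1.34), against 6.98 and 19.6 percent of all genes and medians of 0.11 and 0.30, the latter 4 and 0 without Lmo2-/- HE1 replicate 1. S100a6, a calcium-binding protein (4.57), and Tnc, a matrix protein (4.46), rose most in WT. Cd44, the hyaluronan receptor (4.20), Tnc (3.42) and Timp3, a metalloproteinase inhibitor (3.39), rose most in Lmo2-/- cells, and Cd44 and Timp3, like Tnc, were called in WT too (2.45 and 3.52). Hmox1, haem oxygenase, fell by 2.32 on the log2 scale in Lmo2-/- cells.

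Heat shock and dissociation genes, listed because handling can raise them together with Fos and Jun, gave 1 called higher and 0 lower of 14 tested in WT (median 0.39) and 2 higher and 1 lower in Lmo2-/- cells (median 0.45, and -0.10 without Lmo2-/- HE1 replicate 1). These shares were near the 6.98 and 19.6 percent called among all genes, whose medians were 0.11 and 0.30. Hspa5, a chaperone of the endoplasmic reticulum, rose in both (1.71 and 1.77) and Bag3, a co-chaperone, in Lmo2-/- cells (1.76), where Hspe1, a mitochondrial chaperonin, fell by 2.41 on the log2 scale. The strongly inducible Hspa1a and Hspa1b stayed at or below 0.722 and 0.403 FPKM in all 13 libraries. The list held only chaperones, co-chaperones and heat shock factors. The part of handling in the values of the AP-1 and early genes was not tested.

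Among the genes whose pattern over the 13 libraries was most like that of Jun were Macf1, Fgd5 and Plekhg1, with Pearson r of log2(FPKM + 1) between 0.975 and 0.982 among 4997 genes with a mean FPKM above 10. For Fos they were Kpna1, Cyr61, Ltn1, Cpsf2 and Cebpz, with r between 0.912 and 0.941. Cyr61, a secreted matrix protein and itself an immediate early gene, had its extremes in the same libraries as Fos, at 48.5 FPKM in Lmo2-/- HE1 replicate 0 and 1.36 FPKM in replicate 1. For Egr1 likeness was weaker, with r between 0.795 and 0.807 for Atp1b3, Wdr1, Gabpb1, Gars and Cyr61. These are descriptions over libraries that share stage and depth.

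In the GENCODE annotation of GRCm38 the JUN family genes overlap others on the opposite strand. Jun lies on chromosome 4 from 95049034 to 95052222, and the antisense transcript Junos had between 0 and 3.68 FPKM. In the expression table the row of Jun covers 95049034 to 95167318, well past the gene. How much of the FPKM of Jun came from outside the gene was not tested. Junb, on chromosome 8 from 84974484 to 84978718, overlaps Prdx2, a peroxiredoxin with between 29.5 and 104 FPKM. In the expression table the row of Junb covers 84976909 to 84978748 and leaves out the end of the gene at 84974484. Where the overlap reaches into that row, the low values of Junb are uncertain if strand was not used in counting. The library kit marks strand, but whether the counting used it is not stated. Atf3 lies on chromosome 1 from 191170296 to 191218039, Fos on chromosome 12 from 85473890 to 85477273 and Jund on chromosome 8 from 70698949 to 70700616. The row of Jund starts before the gene, at 70697739, and how much of its FPKM came from outside the gene was not tested.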

How the data were processed

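The analysis used 13 RNAseq libraries, 9 of Flk-1+ cells and 4 of HE1. The authors mapped reads to mm10 with TopHat2 2.0.9, assembled transcripts with Cufflinks 2.0.0 with quartile normalisation, and deposited 1 FPKM value per gene and library, made with Cuffnorm. Gene names came from a deposited table of FPKM per condition. Another deposited table, which was not used, holds the authors' Cuffdiff p-values and fold changes. Fragment counts are not given, so no counting intervals were computed.

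Genes with a locus over 200 bp and at least 1 FPKM in at least 2 libraries (13802) were fitted by group with limma 3.58.1 (R 4.3.3, mean-variance trend) on log2(FPKM + 1) of all 13 libraries. The 6 comparisons and the interaction were two-sided, with Benjamini-Hochberg adjustment over all genes. Python 3.11.15 with pandas 2.3.3 did the rest, and the fit was tested on simulated data. Changes were planted there only in genes of higher mean level than any of the AP-1 and early genes. The simulation therefore does not cover changes at their levels. The study calls the libraries biological replicates and the labels give no separate cultures, so p-values measure the spread between these libraries.

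All 10 AP-1 and early genes are named, with up to 3 called rises and 3 called falls of each related list and the 5 genes most correlated with Fos, Jun and Egr1. Other genes were named after their values were seen. A few genes that these rules select are not reported here. The genes and lists were chosen with earlier results of these data known. Alternatives were other pseudocounts, filters, scalings and fits, a replicate block, and each library left out. The ChIP and DNase data were not analysed here.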

Additional observations from a re-analysis of the deposited data

How the results depend on the processing

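Under alternatives other than leaving out a library, 658 recomputed values kept direction and call, 11 changed sign, 9 lost a call and 1 gained one. With a library left out, 330 kept both, 27 changed sign, 10 lost a call and 5 gained one. The number of the 9 genes called stayed at 0 in the 3 Flk-1+ comparisons and in the interaction under every alternative run. For HE1 against Flk-1+ cells it was 3 in WT, between 2 and 4 under the other alternatives (4, with Fosb, without the FPKM criterion) and between 0 and 2 with a library left out. In Lmo2-/- cells it was 3, fell to 1 (Jun) with only the groups compared in the fit, and lay between 2 and 5 with a library left out. Between HE1 genotypes it was 0, and between 0 and 2 with a library left out. The cause of these changes was not tested.

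The call of Egr1 in WT was lost with a pseudocount of 0.1, without the filter on low values, after quantile normalization, after rescaling to a common median and with the replicate block. The call of Jund in Lmo2-/- cells was lost after rescaling, with only the groups compared and with array weights, and that of Atf3 with only the groups compared. Rescaling moved the median of all genes from 0.11 to -0.23 in WT and from 0.30 to -0.33 in Lmo2-/- cells, and quantile normalization moved it to -0.04 and 0.02.

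Uncalled estimates changed sign as follows. Quantile normalization gave 0.05 for Fosb (Lmo2-/- against WT, Flk-1+) and 0.11 for Atf3 (Tal1-/- against Lmo2-/-). Array weights gave 0.03 for Jun (Tal1-/- against WT). Rescaling gave -0.17 for Fosl2 and -0.03 for Ier2 from Flk-1+ to HE1 in Lmo2-/- cells, and -0.16 for Fosl2 between HE1 genotypes. A pseudocount of 0.1 gave -0.88 for Ier2 in Lmo2-/- cells and 0.17 for the interaction of Atf3. A pseudocount of 5 gave 0.06 for Fos between HE1 genotypes and interactions of 0.14 for Fos and 0.04 for Ier2.

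With a library left out, estimates that changed sign had these ranges. For Lmo2-/- against WT Flk-1+ cells they were -0.54 to 0.06 (Fos) and -0.63 to 0.02 (Junb). For Tal1-/- against WT they were -0.09 to 0.13 (Fosb), -0.06 to 0.43 (Fosl2), -0.24 to 0.20 (Jun), -0.15 to 0.35 (Jund) and -0.50 to 0.17 (Ier2). For Tal1-/- against Lmo2-/- they were -0.03 to 0.19 (Fosb) and -0.40 to 0.15 (Atf3). From Flk-1+ to HE1 they were -0.55 to 0.07 for Fosl2 in WT, and in Lmo2-/- cells -0.74 to 4.53 (Fos), -0.03 to 0.57 (Fosb) and -1.66 to 2.27 (Ier2). Between HE1 genotypes they were -3.32 to 1.96 (Fos), -0.03 to 0.59 (Fosl2), -0.76 to 0.32 (Jun), -2.07 to 0.09 (Atf3) and -2.88 to 1.05 (Ier2). For the interaction they were -3.11 to 2.16 (Fos), -0.07 to 1.01 (Jun), -1.38 to 0.78 (Atf3), -1.97 to 0.55 (Egr1) and -2.37 to 1.55 (Ier2). Leaving out an HE1 library left 1 in its group, which was assumed to vary like the others.

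Genes called in all ranged from 629 to 1682 for the step to HE1 in WT (323 to 1124 with a library left out), from 976 to 3524 in Lmo2-/- cells (1645 to 3836), from 0 to 626 between HE1 genotypes (86 to 2177) and from 5 to 85 for the interaction (0 to 1150). In Flk-1+ cells they reached at most 15. With the replicate block, 2 of the 9 genes were called in the WT step and 14 of all genes in the interaction. Correlations of same-numbered libraries lay between -0.18 and 0.17, and the numbers were not taken to pair the libraries. Lmo2-/- HE1 replicate 1 limits what can be said of low genes in HE1 by its low estimated depth.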
